A study of Arabidopsis thaliana with 12 samples.

Results

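The 72 genes described here are genes of Arabidopsis thaliana known by a locus name alone whose root transcript was lower after dexamethasone (DEX) than after mock treatment. They were selected on these arrays by 3 conditions on the deposited log2 values. The mean of the DEX arrays lay at least 0.6 below the mean of the mock arrays, every DEX array lay below every mock array, and the mock mean was at least 5. A probe set had to be annotated to 1 gene. This gave 72 genes, all protein-coding, of 16550 genes measured, 14745 of which are named by locus alone. A further 4 loci that meet the same values were left out, and 17 genes with a symbol that also meet them are not among the 72. Because the DEX and mock arrays chose the genes, their DEX minus mock differences are given as a description, and no test of them is read as a result.

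LBD16 is a transcription factor that promotes the first divisions of lateral roots. In a GR fusion the steroid-binding region of a glucocorticoid receptor (GR) holds the protein in the cytoplasm until a steroid such as DEX lets it enter the nucleus. Cycloheximide (CHX) stops ribosomes, so a transcript change that first needs a newly made protein is not expected to appear in its presence. CHX is also known to change the level of many plant transcripts by itself.

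All 12 arrays came from 5-day-old roots of 1 transgenic line, 35S::LBD16:GR in the arf7-2 arf19-5 double mutant, in which LBD16:GR is driven by the broadly active 35S promoter and the auxin response factors ARF7 and ARF19 are lost. Seedlings were treated for 4 hours with 2 µM DEX plus 10 µM CHX (DEX+CHX), 10 µM CHX, 2 µM DEX, or mock solution with 0.1% DMSO, with 3 arrays for each of the 4 treatments. The labels call the 3 RNA samples of a treatment independent, and do not say that they came from separate plates or days, so p-values measure the spread between these samples. No array holds roots without the fusion, so a response to DEX itself and a response to the activated fusion cannot be told apart. The RNA came from whole roots, where fewer cells of a type and less RNA per cell cannot be told apart either.

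Replicate arrays correlated at 0.992 to 0.994 across genes. LBD16 itself read 9.29 to 9.67 on the log2 scale over the 12 arrays, from probes that could read the transgene and the native gene. The marker lists for other root and shoot cells were thinly covered. Only rows annotated to 1 gene were searched, so other markers may lie among the 20927 rows with no gene name. For the endodermal barrier 1 of 9 markers was found (GSO1) and for root hairs 2 of 9 (EXPA7 and EXPA18). For shoot photosynthesis 1 of 6 was found (RCA), and for suberin, root cap, xylem and phloem none was. None of these 4 markers is among the 72, and none passed the test with DEX in the absence or presence of CHX. In CHX against mock roots, as in DEX+CHX against DEX roots, GSO1 was called higher and EXPA7, EXPA18 and RCA lower. Their part in the values below was not tested, and the tissue label could be checked against no more than these.

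The 72 genes are spread over all 5 chromosomes, with 23, 8, 18, 9 and 14 on chromosomes 1 to 5. They include 2 pairs of direct neighbours, AT5G23360 with AT5G23370 and AT5G21940 with AT5G21950. From general knowledge of the Arabidopsis genome, added after the values were seen, 44 of them belong to a known protein family. These are 12 metabolic enzymes, 10 wall or otherwise secreted proteins, 6 class III peroxidases, 5 proteins tied to transcription, 3 transporters, 3 signalling proteins and 5 of other families, while 28 were given no family. The families serve as background and were not tested as lists.

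The metabolic enzymes act on small molecules. They include AT1G74470, the geranylgeranyl reductase that supplies the side chain of chlorophyll and tocopherol, AT1G30820, a CTP synthase, and AT3G29410, of the terpene synthases. AT2G34810 and AT4G20820 resemble berberine bridge enzyme, a flavin-dependent oxidase. Among the secreted proteins are AT2G27500 and AT4G18340, of a family that cuts the cell wall polymer callose, AT1G02360, of a chitinase family, AT3G22800, a leucine-rich repeat extensin of the cell wall, and the glycine-rich proteins AT4G30450 and AT5G46730. The proteins tied to transcription are AT5G61590 (DEWAX, a repressor of wax synthesis genes), AT4G16750 of the AP2/ERF family, AT3G16350 of the MYB-like factors, AT1G76590 of the PLATZ family and AT2G44340, whose VQ motif is found in partners of WRKY factors. The transporters are AT4G00910 of the aluminium-activated malate transporter family, AT1G35350 of the PHO1 family and AT1G33100 of the MATE efflux family. Signalling is represented by AT1G53440, a leucine-rich repeat receptor kinase, and by AT3G16560 and AT3G16800, protein phosphatases of type 2C.

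Across the 72 genes the DEX minus mock difference ran from -1.35 to -0.61 on the log2 scale with a median of -0.74, against a median of 0.03 over all 16550 genes. The median level of the 72 genes was 6.20, 6.21 and 6.16 in DEX roots, against 6.98, 6.85 and 7.04 in mock roots. With a limma model, which fits every gene over all 12 arrays and lets genes share an estimate of the spread, 35 of the 72 passed an adjusted p below 0.05 in this contrast, where 0.411% of all genes were called lower and 1.11% higher. That count follows from how the genes were chosen and is not read further. Just inside the threshold lay AT3G16350, AT3G29410 and AT3G16800, each at -0.61, and just outside it lay AT1G72200, AT5G60400 and AT5G15190, each at -0.60.

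AT1G58320, a small membrane protein of the PLAC8 family, had the most negative difference. It read 6.51, 5.85 and 6.43 in DEX roots, against 7.60, 7.57 and 7.66 in mock roots, a difference of -1.35. The mock arrays lay close together and DEX replicate 2 was the lowest of the 6. AT5G38940, a germin-like protein of the cell wall space, read 5.40, 4.41 and 5.20 in DEX roots, against 5.91, 5.84 and 6.52 in mock roots (-1.09). Its spread was wider than that of AT1G58320, with DEX replicate 2 again the lowest array. AT3G20850, a proline-rich protein of a kind found in cell walls, read 6.61, 6.61 and 6.24 in DEX roots, against 7.92, 7.58 and 7.24 in mock roots (-1.09).

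AT4G00910, the malate transporter family member, read 8.62, 8.67 and 8.52 in DEX roots, against 9.49, 9.94 and 9.59 in mock roots. The glycine-rich protein gene AT4G30450 read 8.32, 8.77 and 8.20 in DEX roots, against 9.44, 9.56 and 9.27 in mock roots. In both genes the lowest mock array stood clear of the highest DEX array, and the DEX mean was 8.60 ± 0.08 (SD, n = 3) for AT4G00910 and 8.43 ± 0.30 for AT4G30450, against 9.67 ± 0.24 and 9.43 ± 0.15 in mock roots. AT5G16410, an acyltransferase of the HXXXD type, read 4.92, 4.52 and 4.65 in DEX roots, against 5.62, 5.77 and 5.66 in mock roots (-0.99). AT1G22430, which resembles alcohol dehydrogenases, read 7.14, 7.56 and 7.43 in DEX roots, against 8.17, 8.33 and 8.42 in mock roots (-0.93). AT5G23370, a GRAM-domain protein, read 5.21, 5.19 and 4.61 in DEX roots, against 5.95, 6.01 and 5.91 in mock roots (-0.95). Its DEX replicate 3 was the lowest array. AT3G20555 had the narrowest gap between the groups among the 12 genes with the most negative differences. It read 4.49, 3.95 and 4.15 in DEX roots, against 5.44, 5.57 and 4.54 in mock roots (-0.99).

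**Figure D1:**
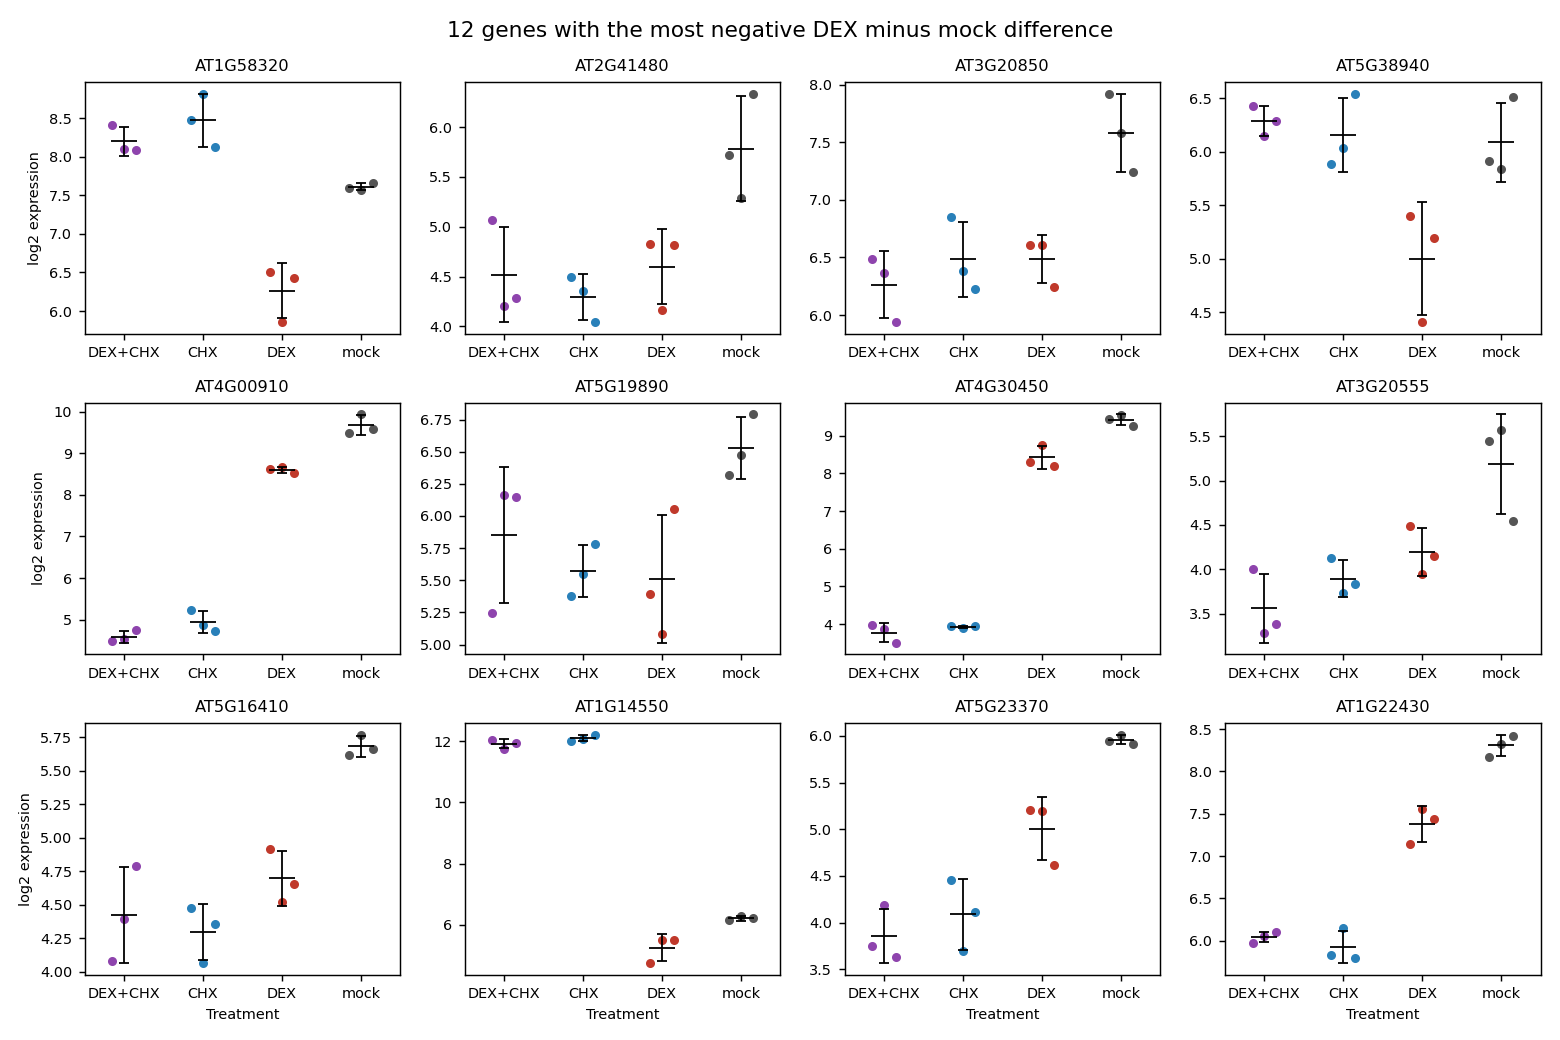
log2 expression of the 12 genes with the most negative DEX minus mock difference, one panel per gene with its own vertical axis, by treatment. Points are the 3 arrays, and the long bar with whiskers is the mean ± SD. DEX arrays lie below mock arrays in every panel by the choice of genes, while the DEX+CHX and CHX arrays lie far below mock for AT4G00910 and AT4G30450 and far above it for AT1G14550.

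DEX+CHX roots were compared with CHX roots to ask whether DEX lowered the same genes when protein synthesis was blocked. These 6 arrays had no part in choosing the genes. None of the 72 genes was called lower or higher by limma at an adjusted p below 0.05, where 0.0423% of all genes were called lower and 0.55% higher. At an unadjusted p below 0.05, 9 of the 72 were lower and 0 higher, against 2.14% lower and 3.13% higher over all genes. In 10 of the 72 genes (13.9%) every DEX+CHX array lay below every CHX array, against 4.57% of all genes, and in 0 genes every DEX+CHX array lay above, against 5.12% of all genes. The DEX+CHX minus CHX difference ran from -0.57 to 0.40 with a median of -0.09, against -0.01 over all genes. It was negative in 40 of the 72 genes (55.6%) and positive in 32, against 51.9% negative over all genes. For 53 of the 72 genes the 95% interval of the difference excluded a fall of 0.6 or more, and for the other 19 it did not. Over all genes the interval excluded such a fall in 14622 of 16550. The median standard error was 0.17 for the 72 genes and 0.14 over all genes. A difference that misses the threshold does not show that DEX had no effect under CHX.

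These small shifts rested in part on single arrays. Without DEX+CHX replicate 2 the 9 genes at an unadjusted p below 0.05 came to 4, and the median difference of the 72 genes to -0.01. Without CHX replicate 1 there were 5 such genes, and without CHX replicate 2 there were 6. Without DEX+CHX replicate 1, 7 were lower and 2 higher.

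**Figure D2:**
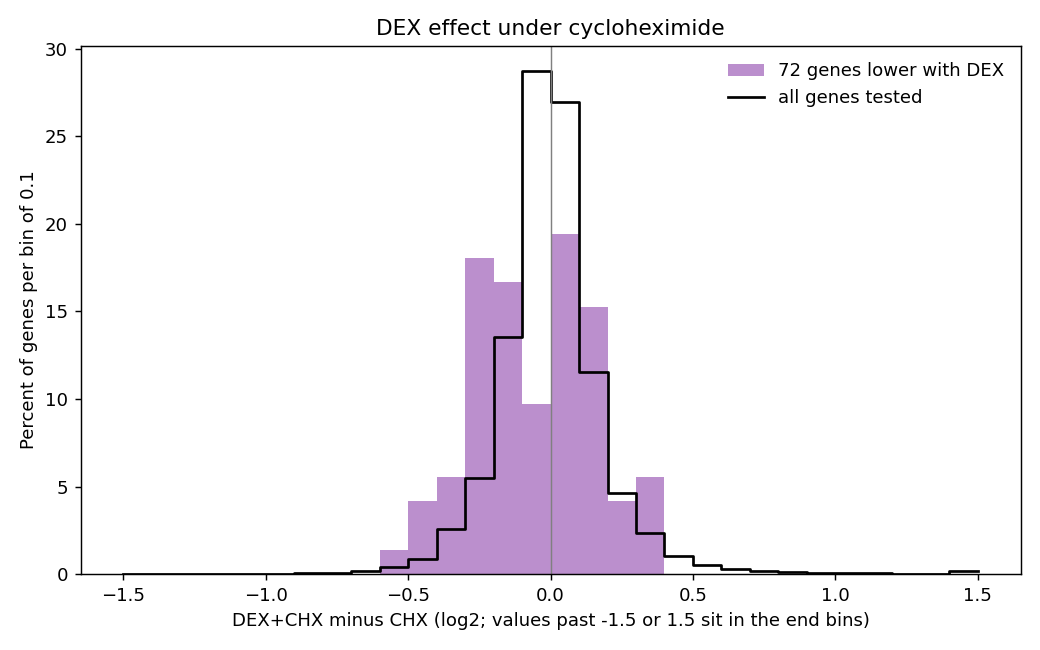
Distribution of the DEX+CHX minus CHX difference (log2, horizontal axis) as the percent of genes in bins of 0.1 (vertical axis), for the 72 genes lower with DEX (bars) and for all 16550 genes (line). The bars lie between -0.57 and 0.40 and are wider than the peak of the line, with medians of -0.09 for the 72 genes and -0.01 for all genes.

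AT2G44340, the VQ motif gene, came nearest to a call. It read 9.01, 9.21 and 9.17 in DEX+CHX roots, against 9.55, 9.87 and 9.67 in CHX roots, a difference of -0.57 (SE 0.12, limma adjusted p = 0.066). All DEX+CHX arrays lay below all CHX arrays, and the gene passed the threshold after quantile normalization, without the dimmest genes and with a trended, robust variance. Both groups stood far above the levels without CHX, where it read 5.16, 5.09 and 4.84 in DEX roots, against 5.94, 5.93 and 5.78 in mock roots.

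AT4G20820, the berberine bridge enzyme-like gene, read 5.35, 5.27 and 4.97 in DEX+CHX roots, against 5.76, 5.67 and 5.63 in CHX roots (-0.49, SE 0.13, limma adjusted p = 0.306). AT1G50590, a cupin-fold protein, averaged 6.62 ± 0.22 (SD, n = 3) in DEX+CHX roots, against 7.07 ± 0.12 in CHX roots (-0.45, SE 0.16, limma adjusted p = 0.667). Neither was called, although the arrays did not overlap in either gene. On the other side, AT3G15450 read 8.87, 9.43 and 9.19 in DEX+CHX roots, against 8.77, 9.04 and 8.59 in CHX roots (0.36, SE 0.21). AT5G21940 differed by 0.21 (SE 0.13) and AT2G34810, also like berberine bridge enzyme, by 0.31 (SE 0.20). These 3 had the smallest p among positive differences, and none was called.

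The width of the 95% interval under CHX is shown for 3 of the 12 genes with the most negative DEX minus mock differences, chosen after their values were seen. For AT1G58320 the DEX+CHX minus CHX difference was -0.27 with an interval of -0.70 to 0.15. For AT5G38940 it was 0.13 with an interval of -0.44 to 0.71, and for AT1G22430 0.12 with an interval of -0.17 to 0.40. The differences without CHX chose these genes and so lean low, and the gap between both differences was not tested.

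CHX by itself moved most of the 72 genes, and in opposite directions. In CHX roots against mock roots 38 were called lower and 22 higher, in a comparison where 30.7% of all genes were called lower and 24.2% higher. In DEX+CHX roots against DEX roots 24 were called lower and 33 higher, where 32.5% of all genes were called lower and 23.3% higher. The first comparison uses the mock arrays and the second the DEX arrays that chose the genes, which places mock high and DEX low in every one of them. The median difference of the 72 genes was -0.48 for CHX minus mock, against -0.08 over all genes, and 0.18 for DEX+CHX minus DEX, against -0.12 over all genes. Set side by side, 24 of the 72 genes (33.3%) were called lower with CHX in both comparisons and 22 (30.6%) higher in both, against 27.5% and 21.2% of all genes.

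**Figure D3:**
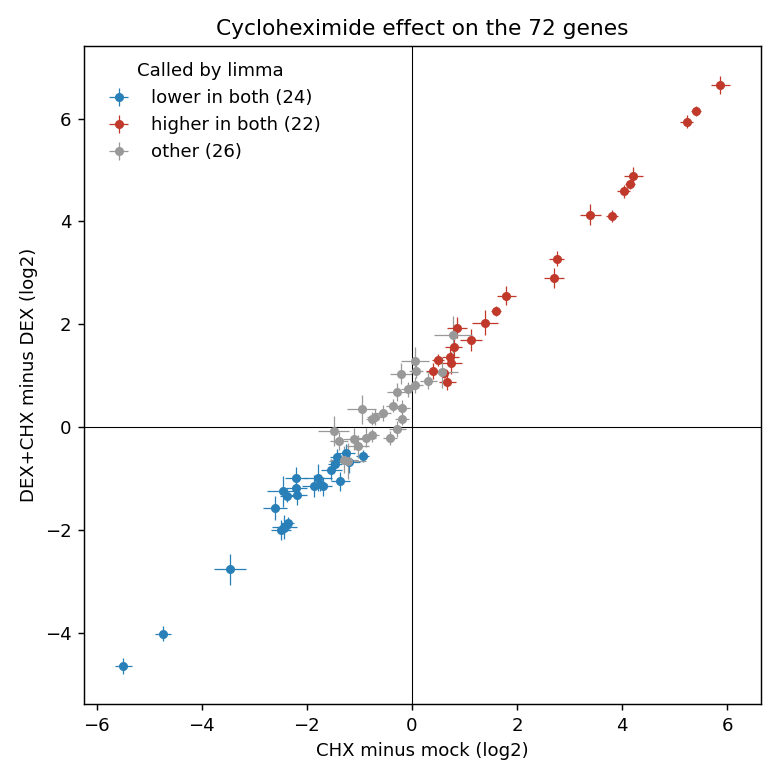
CHX minus mock (horizontal axis, log2) and DEX+CHX minus DEX (vertical axis, log2) for each of the 72 genes, with standard errors as bars. Blue points are the 24 genes called lower in both comparisons, red points the 22 called higher in both, and grey points the other 26. Differences with CHX span -5.49 to 5.87 against mock.

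The 24 genes lowered by CHX in both comparisons include 6 of the 12 metabolic enzymes, AT4G00910 and AT1G33100 of the transporters, both phosphatases, both glycine-rich proteins and AT4G16750 of the AP2/ERF factors. The DEX+CHX against DEX call of AT4G16750 ended without DEX replicate 1, DEX replicate 3, DEX+CHX replicate 2 or DEX+CHX replicate 3 (limma adjusted p = 0.068 to 0.129), and that of AT1G62510, a lipid-transfer-type protein, without DEX replicate 2 or DEX+CHX replicate 3 (0.0777 and 0.0768). Their median CHX minus mock difference was -2.19. In all 24, every CHX array lay below every DEX array, so CHX brought them below the level that DEX reached without it. For 16 of the 24 the fall was at least 2-fold in both comparisons. Over all 16550 genes, 1752 were called lower by at least 2-fold in CHX against mock and 1797 in DEX+CHX against DEX. How many were so in both was not counted. The deposited values have no stated floor. Of the 72 genes, 6 had a DEX+CHX mean and 5 a CHX mean under 4.15, the bound of the dimmest 30% of all genes measured, while no DEX mean lay under it.

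AT4G30450, the glycine-rich protein gene, showed the largest fall with CHX. It read 3.94, 3.90 and 3.95 in CHX roots, against 9.44, 9.56 and 9.27 in mock roots, a fall of 5.49 on the log2 scale (SE 0.16, limma adjusted p = 8.29e-11). It read 3.96, 3.86 and 3.50 in DEX+CHX roots, against 8.32, 8.77 and 8.20 in DEX roots. With CHX its means lay under the bound of the dimmest 30% of genes, with or without DEX. AT4G00910, the malate transporter family member, read 5.23, 4.86 and 4.72 in CHX roots, against 9.49, 9.94 and 9.59 in mock roots (-4.74, SE 0.15, limma adjusted p = 1.87e-10). In DEX+CHX roots it read 4.49, 4.52 and 4.76, against 8.62, 8.67 and 8.52 in DEX roots.

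AT3G01260, of the aldose 1-epimerase family that interconverts forms of a sugar, read 6.94, 5.47 and 5.96 in CHX roots, against 9.50, 9.79 and 9.47 in mock roots (-3.46, SE 0.30). CHX replicate 1 was the highest of its CHX arrays. AT1G72645 fell by 2.60 (SE 0.23) to 2.59, 2.80 and 2.42 in CHX roots, against 4.97, 4.97 and 5.68 in mock roots. The phosphatase gene AT3G16800 fell by 2.49 (SE 0.20) to 4.89, 4.67 and 5.00 in CHX roots, against 7.15, 7.24 and 7.63 in mock roots. The other phosphatase, AT3G16560, fell by 1.69 (SE 0.18). All of these falls passed the limma test, and no CHX array overlapped a mock array in these genes.

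The 22 genes raised by CHX in both comparisons include 2 peroxidases, the receptor kinase AT1G53440, the PHO1-family gene AT1G35350, the VQ motif gene AT2G44340, the chitinase-family gene AT1G02360 and both genes of the callose-cutting family. Their median CHX minus mock difference was 1.70. Over all 16550 genes, 2081 were called higher by at least 2-fold in CHX against mock and 2075 in DEX+CHX against DEX. Of the 22 genes, 14 rose at least 2-fold in both comparisons. No metabolic enzyme of the 12 was among them, although AT3G61400 was called higher in both without CHX replicate 1 (limma adjusted p = 0.0282 for CHX against mock). Of the 22, 15 had a negative DEX+CHX minus CHX difference and 4 an unadjusted p below 0.05, with a median of -0.09. The 24 genes lowered by CHX had a median of -0.05 there, 12 being negative and 2 having such a p, and the remaining 26 genes had a median near 0.00, 13 being negative and 3 having such a p. Over all genes 51.9% of the DEX+CHX minus CHX differences were negative, and 2.14% of genes were lower there at an unadjusted p below 0.05. The CHX arrays that define these classes also enter that difference, and the classes were not tested against each other.

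AT1G14550, a peroxidase gene, rose most. It read 12.01, 12.07 and 12.21 in CHX roots, against 6.15, 6.31 and 6.21 in mock roots, which was 58.6-fold higher (log2 difference 5.87, SE 0.18, limma adjusted p = 1.24e-10). AT1G05575 read 11.18, 10.98 and 11.12 in CHX roots, against 5.56, 5.76 and 5.72 in mock roots, 42.6-fold higher. The peroxidase gene AT5G39580 read 12.66, 12.64 and 12.80 in CHX roots, against 7.24, 7.47 and 7.69 in mock roots, 37.5-fold higher. All 3 stood far above the mock level in CHX roots, and below it in DEX roots. AT1G53440, the receptor kinase, read 11.93, 11.94 and 11.90 in CHX roots, against 7.82, 7.78 and 7.72 in mock roots, 17.7-fold higher. AT4G17250 read 9.42, 9.07 and 9.34 in CHX roots, against 4.99, 5.44 and 4.76 in mock roots, 18.6-fold higher. Replicates were tight beside these rises, whose standard errors were 0.09 to 0.18 on the log2 scale.

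**Figure D4:**
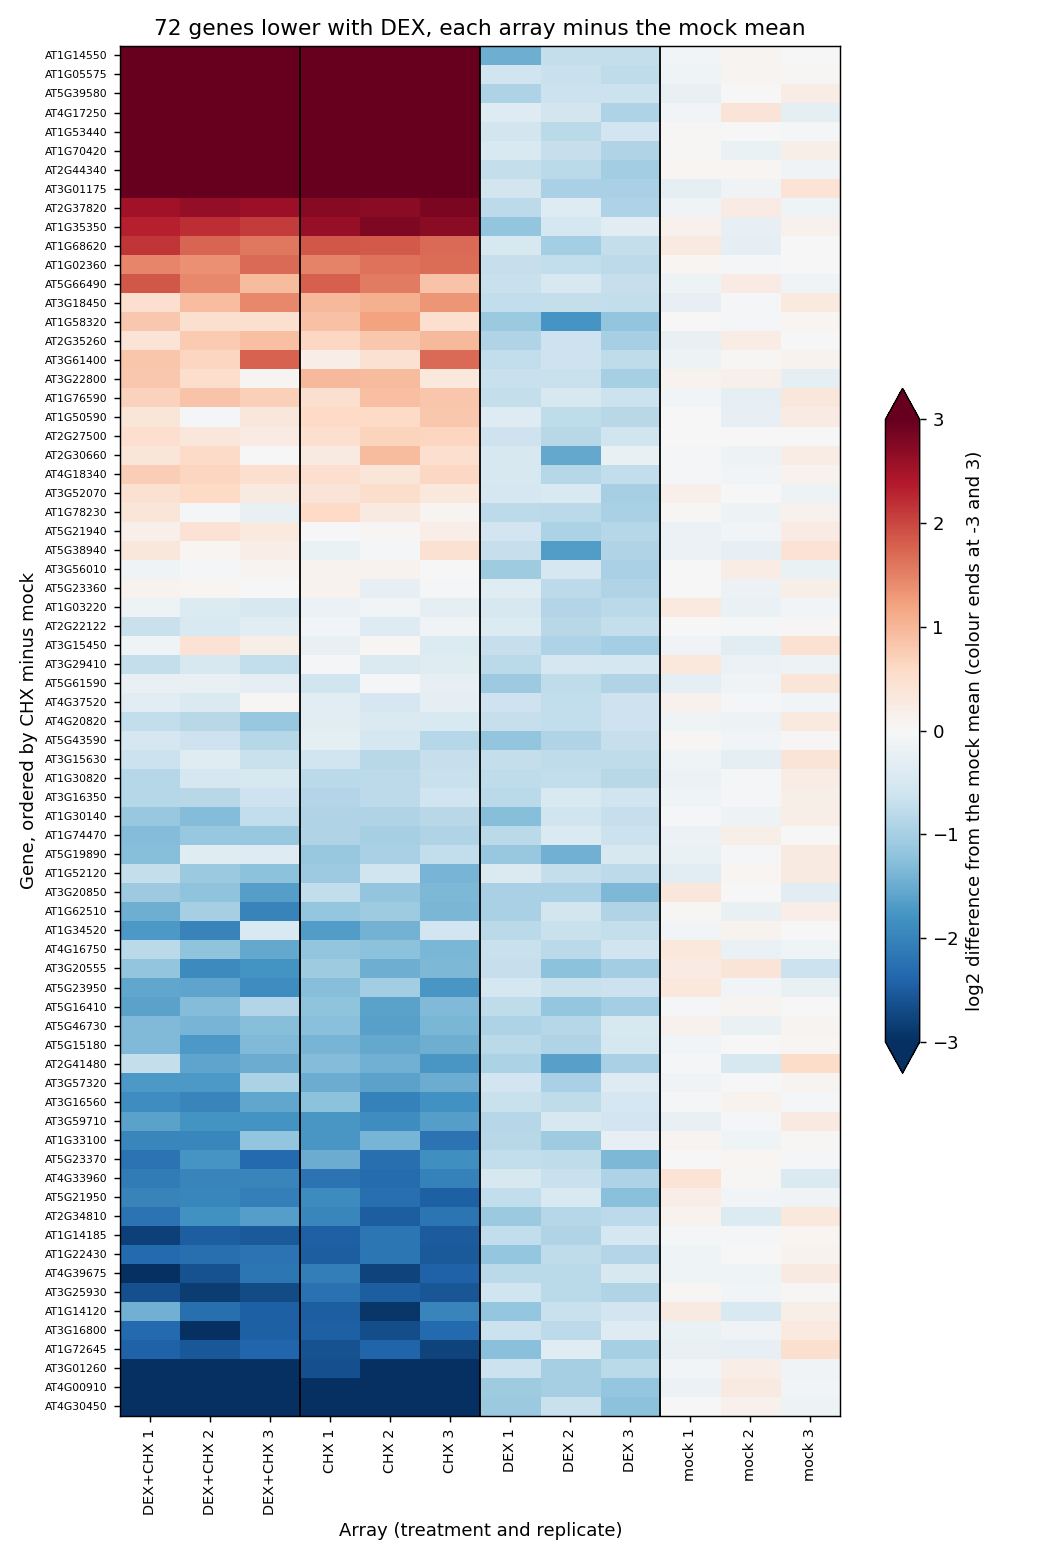
Each of the 72 genes (rows) on each of the 12 arrays (columns), as the log2 difference from the gene's mock mean, with colour ending at -3 and 3. Rows run from the largest rise with CHX (top) to the largest fall (bottom). The DEX columns are light to middle blue throughout, while the DEX+CHX and CHX columns pass from dark red through white to dark blue.

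The other 26 genes lay between these extremes. Of them 13 were called lower in CHX than in mock roots and not called in DEX+CHX against DEX roots. Over all genes 30.7% were called lower in CHX against mock and 27.5% in both comparisons. The mock arrays that chose the genes as high also enter the CHX minus mock difference, so these calls are not read as support. AT3G20850, the proline-rich protein gene, is an example of the 13. It read 6.49, 6.36 and 5.94 in DEX+CHX roots, 6.85, 6.39 and 6.22 in CHX roots, 6.61, 6.61 and 6.24 in DEX roots and 7.92, 7.58 and 7.24 in mock roots. Mock was the group that stood apart, its place above DEX being set by the choice of genes, and the other 3 treatments overlapped. AT5G16410, the acyltransferase, read 4.08, 4.39 and 4.79 in DEX+CHX roots, 4.47, 4.07 and 4.36 in CHX roots, 4.92, 4.52 and 4.65 in DEX roots and 5.62, 5.77 and 5.66 in mock roots. Its DEX+CHX arrays overlapped its DEX arrays, and the difference of -0.28 was called without DEX+CHX replicate 3 (-0.46, limma adjusted p = 0.0301). AT3G20555 differed in DEX+CHX against DEX roots by -0.63 (limma adjusted p = 0.065), just short of a call. It was called without mock replicate 3 (0.019), without DEX+CHX replicate 1 (0.0232), after quantile normalization (0.0377) or centring of arrays (0.0342), without the dimmest genes (0.0479) and with only the arrays compared (0.0399).

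A further 10 genes were called higher in DEX+CHX than in DEX roots and not called in CHX against mock roots. Over all genes 23.3% were called higher in DEX+CHX against DEX and 21.2% in both comparisons. The DEX arrays that chose the genes as low also enter these differences, so their p-values lean small and are not read as support. The germin-like gene AT5G38940 read 6.43, 6.15 and 6.29 in DEX+CHX roots and 5.89, 6.04 and 6.54 in CHX roots, beside the 5.00 ± 0.53 (SD, n = 3) in DEX roots and 6.09 ± 0.37 in mock roots. Its DEX+CHX minus DEX difference was 1.29 (SE 0.26, limma adjusted p = 0.00115). DEWAX, AT5G61590, read 5.38, 5.38 and 5.31 in DEX+CHX roots, 5.01, 5.55 and 5.36 in CHX roots, 4.51, 4.84 and 4.70 in DEX roots and 5.33, 5.49 and 5.97 in mock roots. Here DEX was the low group of the 4, its place below mock being set by the choice of genes. The DEX+CHX minus DEX difference of DEWAX was 0.68 (SE 0.17, limma adjusted p = 0.00542). After quantile normalization DEWAX was called lower in CHX than in mock roots (-0.45, limma adjusted p = 0.049). The 2 genes called in neither comparison were AT2G22122 and the terpene synthase gene AT3G29410, and the second was called lower in CHX than in mock roots after quantile normalization (-0.44, limma adjusted p = 0.0328) or centring of arrays (-0.40, 0.0454). AT3G29410 read 4.56, 4.81 and 4.55 in DEX+CHX roots, against 5.26, 4.86 and 4.92 in CHX roots, with no overlap and a difference of -0.37 (SE 0.16, limma adjusted p = 0.88).

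The 6 peroxidases are the largest of the families named among the 72. Class III peroxidases are secreted haem enzymes that use hydrogen peroxide to stiffen or loosen cell walls. AT2G41480 (peroxidase 25) had the most negative DEX minus mock difference of the 6. It read 4.82, 4.16 and 4.81 in DEX roots, against 5.72, 5.29 and 6.33 in mock roots (-1.18). AT5G19890 read 5.39, 5.08 and 6.05 in DEX roots, against 6.32, 6.47 and 6.79 in mock roots (-1.02). Both varied among replicates, with DEX replicate 2 the lowest. AT1G14550 read 4.75, 5.52 and 5.50 in DEX roots, against 6.15, 6.31 and 6.21 in mock roots (-0.97).

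AT5G15180 read 8.84, 8.74 and 9.10 in DEX roots, against 9.56, 9.65 and 9.69 in mock roots (-0.74). AT5G39580 read 6.55, 6.82 and 6.83 in DEX roots, against 7.24, 7.47 and 7.69 in mock roots (-0.73). AT4G37520 read 4.43, 4.32 and 4.44 in DEX roots, against 5.18, 5.02 and 4.97 in mock roots (-0.66). In these 3 the replicates of a treatment lay close together.

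The 6 differed widely in what CHX did. AT2G41480 (-1.49), AT5G19890 (-0.96) and AT5G15180 (-1.47) were lower in CHX than in mock roots by limma, while AT1G14550 (5.87) and AT5G39580 (5.23) were higher. AT4G37520 was called lower in CHX than in mock roots (-0.37, limma adjusted p = 0.0269) and higher in DEX+CHX than in DEX roots (0.42, limma adjusted p = 0.0135), the 1 gene of the 72 with opposite calls. The first call ended without mock replicate 1 (adjusted p = 0.0952) or CHX replicate 2 (0.103) and with a trended, robust variance (0.0573). The second ended without DEX+CHX replicate 3 (0.0548) and after quantile normalization (0.0747). With DEX under CHX the 6 differences ran from -0.19 to 0.28, with a median of 0.07 and no call.

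**Figure D5:**
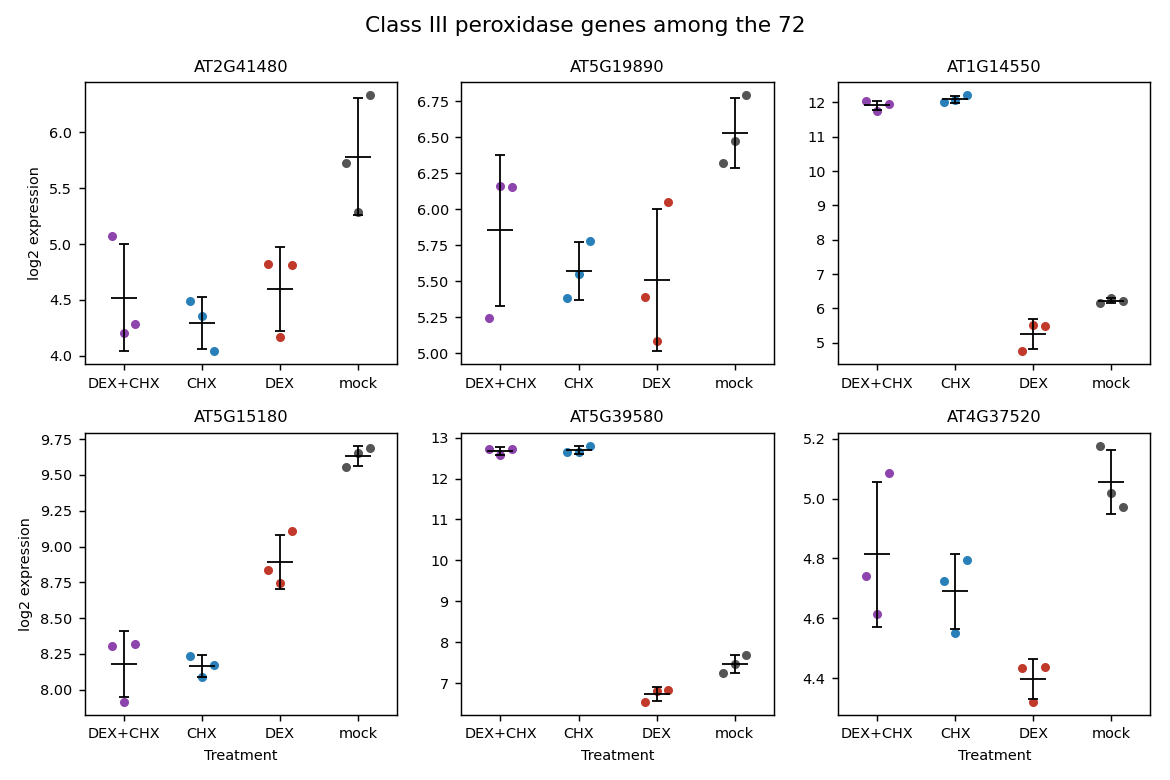
log2 expression of the 6 class III peroxidase genes among the 72, one panel per gene with its own vertical axis, by treatment. Points are the 3 arrays, and the long bar with whiskers is the mean ± SD. AT1G14550 and AT5G39580 stand near 12 to 13 with CHX, while AT2G41480, AT5G19890 and AT5G15180 are lower with CHX than with mock.

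Of 73 loci listed for the class III peroxidase family from general knowledge, after the values were seen, 64 were measured. With DEX against mock, limma called 5 of the 64 lower and 5 higher, where 0.411% of all genes were lower and 1.11% higher. The median difference of the 64 was -0.02. The 5 lower are 4 of the 6 genes above and AT4G16270, and the 5 higher are AT2G18980, AT2G37130, AT5G64100, AT5G14130 and AT5G64120. Calls in both directions thus occurred within the family, and the 6 genes were picked from its lower side. No peroxidase was called in DEX+CHX against CHX roots. In CHX against mock roots 27 of the 64 were called lower and 16 higher, where 30.7% of all genes were lower and 24.2% higher.

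Direct neighbours could carry different calls with CHX. The neighbours AT5G23360 and AT5G23370, both GRAM-domain genes, had DEX minus mock differences of -0.68 and -0.95. In CHX against mock roots AT5G23370 was called lower (-1.87, SE 0.21), while AT5G23360 differed by -0.06 (SE 0.15) and was not called. The neighbours AT5G21940 and AT5G21950, the second an alpha/beta hydrolase, had DEX minus mock differences of -0.79 and -0.82. AT5G21950 was called lower in CHX than in mock roots (-2.20, SE 0.20), and AT5G21940 differed by 0.08 (SE 0.13) without a call. Whether neighbours differ in their response was not tested. Cross-reading of probes between similar genes was not checked.

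Of the 12 metabolic enzymes, 10 were called lower and 0 higher in CHX against mock roots, where 30.7% of all genes were lower and 24.2% higher and the mock arrays were chosen to be high. In DEX+CHX against DEX roots 6 of the 12 were called lower and 1 higher, where 32.5% of all genes were lower and 23.3% higher. The group was put together after the values were seen and has no test. The 10 include AT1G22430 (-2.38), AT2G34810 (-2.21), AT5G21950, AT1G30820, the CTP synthase (-0.75), and AT1G74470, the geranylgeranyl reductase (-0.93). Of these 10, AT4G20820 missed the threshold without mock replicate 3, CHX replicate 2 or CHX replicate 3 (adjusted p = 0.0556 to 0.0965) and AT5G43590, a patatin-like acyl hydrolase, without CHX replicate 3 (0.0561). Without CHX replicate 1, AT3G61400 was called higher in CHX than in mock roots (1.08, limma adjusted p = 0.0282), which turns the 0 into 1. The 1 higher gene in DEX+CHX roots was AT3G61400, an oxygenase family member, at 1.80 (SE 0.36, limma adjusted p = 0.000911).

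Of the 10 wall or secreted proteins, 4 were called lower and 4 higher in CHX against mock roots, where 30.7% of all genes were lower and 24.2% higher. In DEX+CHX against DEX roots 3 were called lower and 6 higher, where 32.5% of all genes were lower and 23.3% higher. The higher ones in CHX roots were AT1G02360, AT2G27500, AT4G18340 and AT3G22800, and the call of AT3G22800 ended without mock replicate 3 (adjusted p = 0.0501). The 6 in DEX+CHX roots include AT1G03220, an aspartyl protease family gene, at 0.37 (limma adjusted p = 0.0474), whose call ended without any of 8 single arrays (adjusted p = 0.0558 to 0.171). AT1G02360, of the chitinase family, read 9.87, 10.00 and 10.05 in CHX roots, against 8.44, 8.34 and 8.36 in mock roots (1.60, SE 0.10). AT2G27500 read 6.70, 6.56 and 6.46 in DEX+CHX roots, 6.71, 6.87 and 6.86 in CHX roots, 5.59, 5.37 and 5.62 in DEX roots and 6.21, 6.20 and 6.21 in mock roots. It stood lowest in DEX roots and highest in CHX roots.

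Of the 28 genes without a family, 13 were called lower and 9 higher in CHX against mock roots (30.7% and 24.2% of all genes), and 8 lower and 14 higher in DEX+CHX against DEX roots (32.5% and 23.3% of all genes). Among them AT3G25930 read 4.77, 4.56 and 4.72 in DEX+CHX roots, against 5.16, 4.93 and 4.84 in CHX roots, a difference of -0.30 (SE 0.11, limma adjusted p = 0.761) with no overlap of arrays. It is named here as an example chosen after its values were seen, as are AT1G35350 and AT2G37820. The PHO1-family gene AT1G35350 read 9.44, 9.34 and 9.21 in DEX+CHX roots, against 9.72, 9.92 and 9.82 in CHX roots (-0.49, SE 0.19, limma adjusted p = 0.79). AT2G37820 read 8.52, 8.61 and 8.56 in DEX+CHX roots, against 8.73, 8.68 and 8.82 in CHX roots (-0.18, SE 0.14, limma adjusted p = 1). In each of the 3 all DEX+CHX arrays lay under all CHX arrays, and none of the 3 was called.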

How the data were processed

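Each of the 12 root RNA samples was read on 1 Affymetrix array. Deposited values are treated as log2 expression, judged from their range, and were made by the authors with Affymetrix Expression Console 1.3, per the submitters' processing notes. How probes were summarized and arrays normalized is not given in the sources used here. Values were used as deposited, with no floor or detection call.

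Of 38408 rows, 16722 were annotated to 1 gene, 759 to several and 20927 were unnamed there. The brightest row per gene gave 16550 genes, named through RefSeq TAIR10.1. No coordinates are printed, since no build is named for the array annotation. No promoter or protein sequence and no gene description was used, so the planned motif counts were not made and the families come from general knowledge.

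A limma 3.58.1 model in R 4.3.3 had 1 mean per treatment over all 12 arrays, with two-sided moderated tests, Benjamini-Hochberg adjustment over all genes and calls at an adjusted p below 0.05. The method was tested on simulated data, whose outcome is not given here and is not read as support for the calls.

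The members and lists were chosen with earlier results of these data known. Named genes are the 12 with the most negative DEX minus mock difference, the 3 with the smallest p per direction for DEX+CHX against CHX, the 5 with the largest CHX changes per direction, those next to the threshold, and family examples chosen after their values were seen.

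Same-numbered replicates of DEX+CHX and CHX deviated together across genes (correlations 0.244, 0.157 and 0.332). They were read as possible pairs there from the data, but the main fit did not pair them. The correlations were also positive for CHX and mock (0.111, 0.077 and 0.211) and for DEX+CHX and DEX (0.0854, 0.0726 and 0.189). For DEX and mock they were 0.0728, 0.0533 and 0.227. The replicate number as a block was an alternative fit, beside other scalings, filters, variances, samples, thresholds and leaving out each array.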

Additional observations from a re-analysis of the deposited data

How the results depend on the processing

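Low values have no stated floor, and 3 arrays per treatment limit the precision. The alternatives changed how many of all genes were called. For DEX against mock the 68 genes called lower came to 22 with only the arrays compared, 21 at an adjusted p below 0.01, and 29 to 62 with 1 array left out, and rose to 94 without the dimmest 30% of genes, 97 with a trended, robust variance and 102 with the replicate block. For DEX+CHX against CHX the 7 genes called lower came to 13 with all rows tested, 3 with only the arrays compared, 2 at an adjusted p below 0.01 and 2 to 8 with 1 array left out, and the 91 called higher to 58, 53 and 59 to 90 with only the arrays compared, the stricter threshold and 1 array left out. Of the 72 genes, 1 was called lower there (AT2G44340) after quantile normalization (adjusted p = 0.0409), without the dimmest 30% of genes (0.0364) and with a trended, robust variance (0.0245), against 0 otherwise, its adjusted p running from 0.0245 to 0.294. With the replicate block 0 of the 72 were called, the smallest adjusted p being 0.0623, and 6 of all genes were called lower. The block changed no count of calls by over 1.5 times. In the CHX comparisons same-numbered arrays correlated at 0.0726 to 0.211. With the block, AT3G61400 was called higher in CHX against mock (limma adjusted p = 0.0414) and AT3G20555 lower in DEX+CHX against DEX (0.0291). With all 38408 rows tested, CHX against mock gave 16040 rows lower and 6998 higher, against 5086 and 4002 of the 16550 genes. DEX+CHX against DEX gave 16720 lower and 6824 higher, against 5375 and 3860. The median over all rows was 6.07 to 6.12 on mock arrays and 5.63 to 5.67 on CHX arrays. Over the genes it was 5.875 to 5.892 and 5.983 to 6.024. Why the rows and the genes differ was not tested. No direction reversed. The conditions that chose the 72 genes took 101 after quantile normalization (67 of the 72 among them), 85 after centring each array (72 among them), 100 without the mock minimum, and 77 to 101 with 1 array left out. Centring moved the median of all genes from -0.08 to -0.19 for CHX minus mock and from -0.12 to -0.22 for DEX+CHX minus DEX. Of 2847 values of named genes under alternatives, 2801 kept their side of the threshold, 28 lost the call and 18 gained it. No called change turned, while an uncalled difference that changed sign counts among the 2801.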
